A study of Mus musculus with 32 samples.

Results

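Voltage-gated and potassium channel genes were examined across bulk RNA-seq libraries of mouse brain 1 day after ischemic stroke. The genes were chosen by name alone: every symbol of the form Kcn, Scn or Cacn with a subunit number, which gave 133 of 33280 genes in the count tables. They comprised 10 genes for the pore-forming alpha subunits of voltage-gated sodium channels (Nav) and 4 for their beta subunits, 10 for the alpha1 pores of voltage-gated calcium channels (Cav), 4 for alpha2delta, 4 for beta and 8 for gamma subunits, 40 for voltage-gated potassium channel (Kv) alpha subunits, 12 for Kv auxiliary subunits, 15 for inward rectifiers (Kir), 14 for two-pore domain channels and 12 for calcium- and sodium-activated potassium channels and their subunits. Wild-type (WT) mice were given BLZ945, an inhibitor of the CSF1 receptor on which brain macrophages depend, at 200 mg per kg for 7 days, or the vehicle alone (CTL). Stroke followed 8 weeks later and was induced in both groups by a clot in the middle cerebral artery, so no library came from an animal without a stroke. From 4 CTL mice (A2, A3, A4 and B1) and 4 BLZ945 mice (C2, C3, C4 and D1), whole tissue and sorted subdural CNS-associated macrophages (sdCAMs) were taken 1 day after the stroke from the ipsilateral, lesioned hemisphere and the contralateral one, which makes 16 libraries of each material. The mice, of both sexes, were young adults at the first dose. The sdCAMs were sorted as CD45+ CD11b+ CD206+ cells negative for Ly6C, Ly6G and CD11c from brains without the choroid plexus. The study's methods mention that sorted cells of a pair of BLZ945 mice were pooled per replicate. A figure legend of the study gives such pooling for a separate stroke experiment in reporter mice. The labels of the libraries used here name a single mouse each and state no pooling.

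Nav channels carry the upstroke of the action potential, Cav channels let in the calcium that releases transmitter and drives transcription, and potassium channels repolarize the membrane and set its resting level. Most of these genes are known from neurons, while some Kir and two-pore channels are the resting conductances of glia, mural cells, epithelia and macrophages. In macrophages and microglia, potassium efflux through two-pore channels and through the calcium-activated channel KCa3.1 is known to control membrane potential and inflammasome activity.

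Sequencing depth ran from 9288717 to 12781505 gene counts in tissue and from 7397393 to 11081409 in the sdCAM libraries kept. The ipsilateral sdCAM libraries of A3 and C2 held 54055 and 55155 counts and were left out, so 14 sdCAM libraries were used. The labels report degraded RNA in 2 sorted samples without naming them. A count of 3 corresponded to 0.235 to 0.323 CPM (counts relative to library size) in tissue and to 0.271 to 0.406 CPM in sdCAMs, which covers counting error only. In the sdCAM libraries all 7 markers of subdural CAMs were detected, with a summed level of 1542 to 5717 CPM contralaterally and 4525 to 9175 CPM ipsilaterally, but the 6 microglia markers summed to more, 6588 to 17566 and 9153 to 25553 CPM. Endothelial, mural, choroid plexus and oligodendrocyte markers summed to more contralaterally. There the 6 endothelial markers summed to 855 to 2751 CPM against 41.8 to 192 CPM ipsilaterally, the 6 mural markers to 896 to 4775 against 64.7 to 293 CPM, the 6 choroid plexus markers to 30.7 to 37492 against 0.502 to 1504 CPM and the 6 oligodendrocyte markers to 668 to 6096 against 225 to 817 CPM. The markers of monocytes and neutrophils had like medians in both hemispheres, 512 CPM contralaterally (231 to 2996) and 513 CPM ipsilaterally (277 to 821).

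In contralateral tissue, channel genes took a median of 1.23% of all counts (lowest 1.21%, highest 1.34%, n = 8). In contralateral sdCAMs the median was 0.0908% (lowest 0.0786%, highest 0.158%, n = 8). Of the 133 genes, 114 had a mean of at least 1 CPM across the tissue libraries and 61 did so across the sdCAM libraries. The filter on low counts left 129 channel genes to be tested in tissue and 114 in sdCAMs. Kcna7, Kcne1, Kcnj1 and Kcnk16 were tested in neither material.

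To compare levels between genes, CPM were divided by the exon length of each gene in kb, which was known for 132 of the 133. In contralateral tissue auxiliary subunits were among the highest. Kcnab2, a cytoplasmic Kv beta subunit, reached 124 ± 14.9 CPM per kb (SD, n = 8). Below it stood Cacng7, a gamma subunit related to the AMPA receptor regulators, at 99.4 ± 5.83, and Scn2b at 98.8 ± 10.7 CPM per kb, a pair that did not differ beyond their spread. Among the pores the levels were lower. Kcnj4, a Kir2 channel of forebrain neurons, was at 75.5 ± 23.7 CPM per kb and Kcnj10, the Kir4.1 channel of astrocytes, at 65.7 ± 13.6. The Nav pores of central neurons were led by Scn8a (Nav1.6) at 33.3 ± 3.71, followed by Scn2a (Nav1.2) at 28.9 ± 2.71 and Scn1a (Nav1.1, the channel of fast-spiking interneurons) at 19.1 ± 1.00 CPM per kb. Of the Cav pores, Cacna1a, the P/Q-type channel, was at 17.4 ± 1.95 and Cacna1c, the L-type Cav1.2, at 6.07 ± 0.767 CPM per kb. Kv pores at similar levels were Kcna2 (35.9 ± 3.26) and Kcnc1 (34.0 ± 2.32 CPM per kb), whose spreads overlapped. Summed per kb over all channel genes, Nav beta subunits made up 23.4% and Kv alpha subunits 22.1% of the tissue level, and two-pore channels 4.24%.

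**Figure D1:**
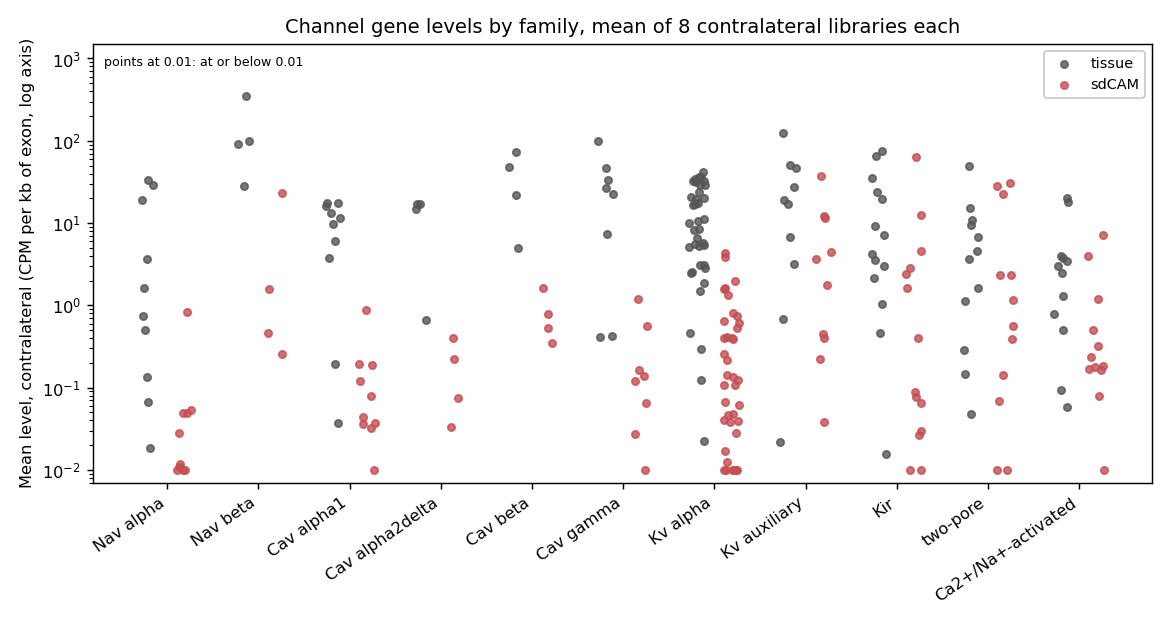
Mean level of each channel gene in contralateral libraries, in CPM per kb of exon on a log axis, by family, with tissue in grey and sdCAMs in red; each point is 1 gene and the mean of 8 libraries, and genes at or below 0.01 are drawn at 0.01. Most families sit far lower in sdCAMs, while Kir and two-pore channels keep members above 20 CPM per kb there.

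Most channel genes varied little between mice. Among the 88 with at least 10 CPM in contralateral tissue, the coefficient of variation over the 8 mice had a median of 14.4%. Scn4b, the Nav beta4 subunit enriched in striatal projection neurons, stood out at 61.9%, with 156 to 896 CPM and a median of 327. Kcna5 (52.3%) and Kcng4 (37.6%) followed, then Kcnab1 at 34.0%, with 98.5 to 219 CPM. Kcnj13 and Kcne2, which are known as choroid plexus channel genes, ranged from 0 to 10.2 and from 0 to 13.5 CPM in contralateral tissue, where the choroid plexus markers themselves ranged from 7.53 to 2928 CPM. These spreads were all among contralateral samples.

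The first question was how channel genes changed in the lesioned tissue. Averaged over both treatments, 2 of 129 channel genes fell, Scn1a and Kcnt2, and none rose (edgeR quasi-likelihood test, Benjamini-Hochberg adjusted p-value under 0.05). Over all 18968 genes tested, 0.517% were called lower and 2.53% higher. The median log2 fold change of the channel genes was -0.07 against -0.01 over all genes, and 82 of the 129 (63.6%) had a negative estimate against 52.3% of all genes. At an unadjusted p under 0.05 there were 19 lower and 6 higher channel genes, or 25 of 129, against 2705 of all 18968 genes. Within CTL mice alone and within BLZ945 mice alone no channel gene was called, while 0.49% and 1.36% of all genes were. Unadjusted p-values under 0.05 were found for 6 and 17 of the 129 channel genes, against 1182 and 2057 of all 18968 genes. DESeq2 called no channel gene in either. Each mouse gave 1 library per hemisphere, so the p-values rest on the spread between mice within each group. This fit did not use the pairing of hemispheres within a mouse. In bulk tissue, fewer cells of a type and less RNA per cell cannot be told apart.

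Scn1a was at 206, 196, 181 and 194 CPM in the contralateral libraries of the CTL mice A2, A3, A4 and B1, and at 161, 154, 158 and 186 CPM in their ipsilateral libraries. In the BLZ945 mice C2, C3, C4 and D1 it was at 206, 208, 199 and 214 CPM contralaterally and at 169, 176, 166 and 191 CPM ipsilaterally. The ipsilateral value was the lower in 8 of 8 mice, although the ranges overlapped between mice. The log2 fold change was -0.24 ± 0.05 (SE, edgeR adjusted p = 0.0133), or 1.18-fold lower. Scn1a was not called without A2, A3, C2 or C4 (adjusted p = 0.0713, 0.0652, 0.0773 and 0.0583).

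Kcnt2 encodes a sodium-activated potassium channel. It was at 19.6, 20.1, 23.3 and 19.1 CPM contralaterally and at 15.3, 10.8, 19.4 and 13.7 CPM ipsilaterally in A2, A3, A4 and B1. In C2, C3, C4 and D1 the contralateral values were 21.9, 27.3, 25.4 and 24.4 CPM and the ipsilateral ones 15.3, 22.4, 17.03 and 12.99 CPM. It was lower ipsilaterally in all 8 mice. The fall was larger than that of Scn1a, with a log2 fold change of -0.51 ± 0.12 (SE, edgeR adjusted p = 0.0243). It was called only without A4 or C3 when 1 mouse was left out, and the adjusted p ranged up to 0.0822. For A3 the deposited table heads its columns with the opposite hemispheres to the sample labels. The labels were used, and with the A3 hemispheres exchanged neither gene was called (adjusted p = 0.399 for Scn1a and 0.443 for Kcnt2).

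Because the hemispheres came from the same mice, the mouse was also fitted as a block, which raised the number of channel genes called to 24. With the block 21 fell and 3 rose, or 16.3% and 2.33% of those tested, against 3.02% and 4.06% of all genes. Among the genes that fell were Scn1a, Scn8a, Scn2b, Cacna1i, Cacnb3, Cacng3, Cacng8, Kcna2, Kcnc4, Kcng1, Kcnh3, Kcnh7, Kcns1, Kcnab2, Kcnab3, Kcnip2, Kcnj3, Kcnj9, Kcnn2 and Kcnt2. With the block and the A3 hemispheres exchanged, a combination tried after the values were seen, 2 channel genes were called, both lower, and neither Scn1a nor Kcnt2 was (adjusted p = 0.282 and 0.259). Most of the 21 genes are known as neuronal pores or the subunits that traffic them. The falls ranged from -0.15 for Scn2b to -0.53 for Kcnt2 on the log2 scale. By family they comprised 2 of 10 Nav pores, 2 of 4 Nav beta subunits, 1 of 10 Cav pores, 1 of 4 Cav beta and 2 of 8 Cav gamma subunits, 6 of 39 Kv alpha and 3 of 11 Kv auxiliary subunits, 2 of 14 Kir channels and 2 of 12 calcium- and sodium-activated channels or their subunits. No two-pore channel or alpha2delta subunit was called.

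Cacnb3, a Cav beta subunit that brings the pore to the membrane, had the smallest adjusted p-value with the block. It was at 294, 245, 285 and 285 CPM contralaterally and at 234, 213, 238 and 243 CPM ipsilaterally in A2, A3, A4 and B1. In C2, C3, C4 and D1 it was at 245, 343, 279 and 243 CPM contralaterally and at 167, 279, 199 and 207 CPM ipsilaterally. Each ipsilateral value was below its own contralateral one. The blocked log2 fold change was -0.32 ± 0.05 (SE, edgeR adjusted p = 1.5e-04), against an adjusted p of 0.0839 without the block.

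The genes that rose with the block were Kcnip3, Cacng5 and Kcnd3. Kcnip3 encodes DREAM, a calcium-binding Kv4 partner that is also known as a transcriptional repressor. It was at 155, 131, 164 and 149.6 CPM contralaterally and at 213, 180.2, 160.4 and 177 CPM ipsilaterally in A2, A3, A4 and B1. In C2, C3, C4 and D1 it was at 149, 186, 181 and 127 CPM contralaterally and at 186, 262, 200.1 and 164 CPM ipsilaterally, so it was higher in 7 of 8 mice, the exception being A4. The blocked log2 fold change was 0.31 ± 0.06 (SE, edgeR adjusted p = 0.00185). Kcnd3 (Kv4.3), a pore that Kcnip3 protein binds, rose by 0.17 ± 0.05 (adjusted p = 0.0444), whereas Kcnip2, another Kv4 partner, had a log2 fold change of -0.37 ± 0.09 (adjusted p = 0.0107).

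**Figure D2:**
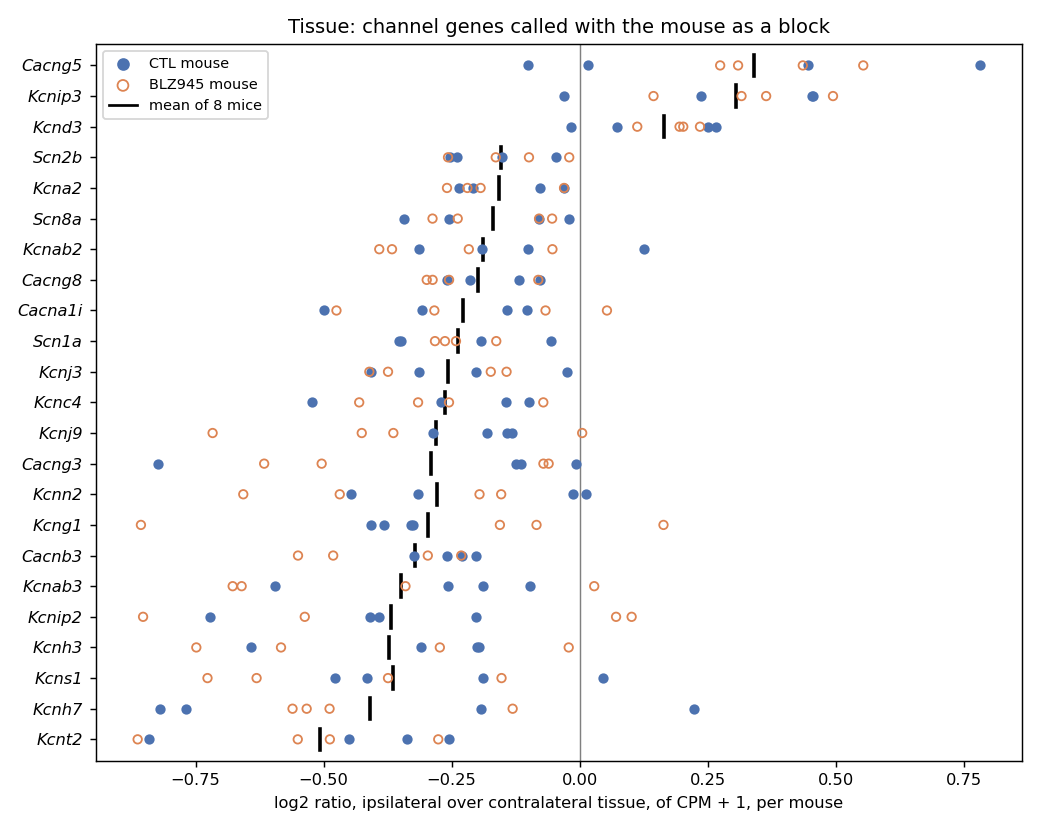
Log2 ratio of ipsilateral to contralateral CPM + 1 in tissue for 23 of the 24 channel genes called with the mouse as a block, 1 point per mouse (filled, CTL; open, BLZ945) and a bar for the mean of 8 mice. Kcnt2, Scn1a and Cacnb3 lie below 0 in all 8 mice, and Kcnip3 lies above 0 in 7.

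Counted by mouse, 11 of the 129 channel genes (8.53%) were lower ipsilaterally in every one of the 8 mice, against 2.87% of all genes. They were Cacnb3, Cacng3, Cacng8, Kcna2, Kcnc4, Kcnh3, Kcnj3, Kcnt2, Scn1a, Scn2b and Scn8a. None was higher in every mouse, against 3.59% of all genes. These counts take A3 as labelled. In BLZ945 mice alone, the block gave 1 channel gene that rose, Kcnip3, and 10 that fell, among them Cacnb3, Kcnt2, Kcnj9, Kcnh3, Kcns1, Kcnab3, Kcnj16, Kcnj3 and Scn1a, against 2.69% higher and 1.45% lower among all genes. The block called none in CTL mice. Several high-level channel genes were not called in any of these fits. Scn2a was at 305 to 401 CPM contralaterally and 237 to 403 CPM ipsilaterally, with a log2 fold change of -0.15 (95% interval -0.34 to 0.04). The astrocytic Kcnj10 had an estimate of -0.05 (-0.36 to 0.27) and Cacna1c one of 0.02 (-0.11 to 0.16).

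The partners of these channels were described alongside, as 41 genes for HCN channels, NALCN subunits, ankyrins, contactins, pumps and exchangers. All 41 were tested in tissue, none was called without the block, and their median log2 fold change was -0.09. With the block 9 fell, among them Abcc8, Atp2b2, Cabp1, Cntnap1, Fgf13, Slc12a5 and Slc8a2, and 1 rose, the HCN channel gene Hcn3 (log2 fold change 0.29 ± 0.08, SE, edgeR adjusted p = 0.034). None of the 10 neuronal markers was called without the block and their summed level was 8510 to 11636 CPM contralaterally and 8106 to 10799 CPM ipsilaterally, with a median log2 fold change of -0.10. Of 5 monocyte and neutrophil markers tested 2 rose, Plac8 and S100a9, and the median log2 fold change of the 5 was 2.57. None of the 7 subdural CAM markers was called, with all 7 estimates positive and a median of 0.43. Of 7 astrocyte markers 1 rose, of 6 endothelial markers 2 rose, and of 6 microglia markers 2 fell. With the block 1 neuronal marker rose and 3 fell. The part of these cell types in the channel results was not tested.

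**Figure D3:**
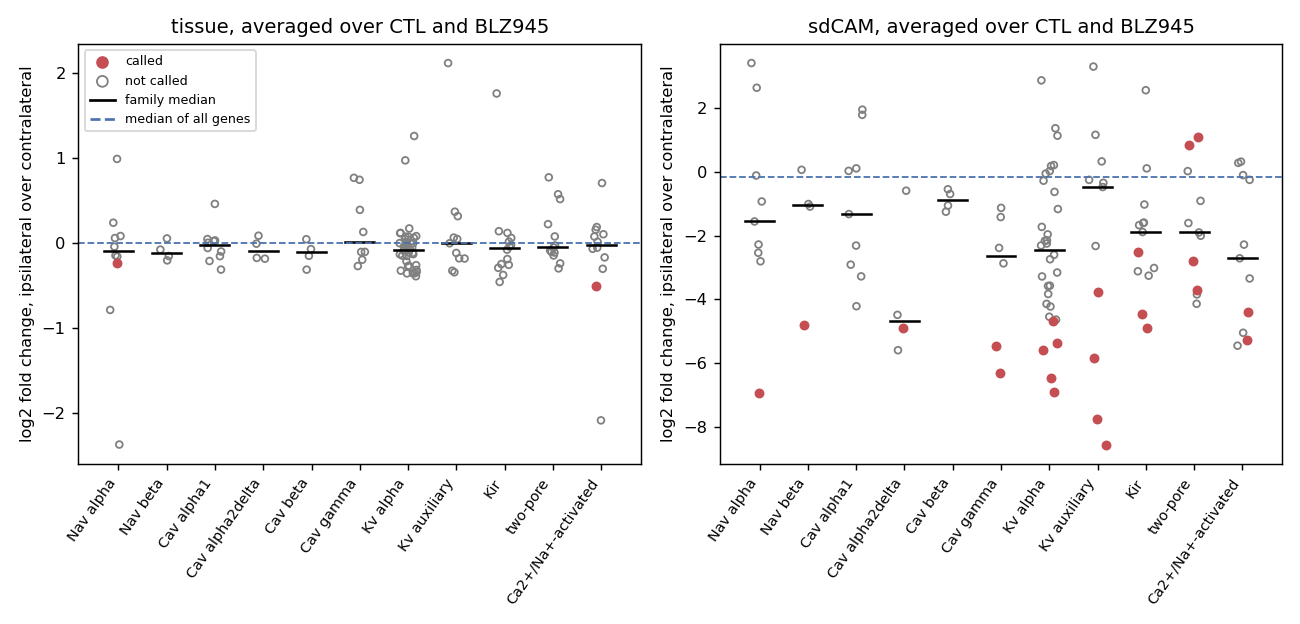
Log2 fold change, ipsilateral over contralateral, of each tested channel gene by family in tissue (left) and sdCAMs (right), averaged over CTL and BLZ945 and fitted without the block; filled points are called, bars are family medians and the dashed line is the median of all genes. Tissue values cluster near 0 with a median of -0.07, whereas in sdCAMs they spread down to -8.54 with a median of -2.16.

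The second question was which channel genes were measured in sdCAMs beside the tissue they came from. Contralateral libraries of both materials were fitted together, 8 against 8. Of 127 channel genes tested, 102 were lower and 10 were higher in sdCAMs, against 38.7% lower and 32.8% higher among all 19505 genes. The median log2 fold change was -5.35 for channel genes and -0.13 over all genes. Every one of the Nav beta, Cav alpha2delta and Cav beta genes was lower in sdCAMs, as were 7 of 10 Nav pores, 9 of 10 Cav pores and 33 of 38 Kv alpha subunits. Of the 41 partners 38 were lower and none was higher. The materials differed in how cells and RNA were obtained as well as in cell type, and these cannot be told apart.

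Some channel genes had few or no counts in sdCAMs. Kcnj4 was at 163 ± 51.1 CPM in tissue (SD, n = 8) and had no count in any of the 8 sdCAM libraries, so it was at least 432-fold lower against a floor of 3 counts per library. Kcng1 and Kcnh4 also had no count there and were at least 67.6-fold and 57.6-fold lower. Scn1a had 11 counts in all over the 8 sdCAM libraries, 5 of which had none, and Cacng7 had 5.

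The 10 genes higher in sdCAMs were Kcnn4, Kcnk6, Kcne4, Kcnmb1, Kcnj13, Kcnq1, Kcne2, Kcnk7, Kcnj8 and Kcnk13. Kcnk6, which encodes the two-pore channel TWIK2 known for potassium efflux in macrophages, was at 145, 104, 152 and 174 CPM in the sdCAMs of A2, A3, A4 and B1 and at 78.7, 132, 64.0 and 157 CPM in those of C2, C3, C4 and D1. In tissue it was between 5.74 and 8.19 CPM, so the materials did not overlap. The difference was 4.23 ± 0.20 on the log2 scale (SE, edgeR adjusted p = 2.6e-11), or 18.7-fold. Kcnk13, which encodes the microglial two-pore channel THIK-1, was at 81.6, 75.0, 75.4 and 87.6 CPM in CTL and at 57.5, 63.4, 37.6 and 80.0 CPM in BLZ945 sdCAMs, and between 9.66 and 18.9 CPM in tissue. It was 4.81-fold higher in sdCAMs (log2 fold change 2.26 ± 0.17, adjusted p = 5.6e-09). Kcnn4, which encodes KCa3.1, was at 19.8, 13.8, 7.97 and 18.3 CPM in CTL and at 34.9, 17.7, 15.2 and 33.3 CPM in BLZ945 sdCAMs. In tissue it did not exceed 1.17 CPM, and the difference was 5.37 ± 0.48 (adjusted p = 4.3e-08). Kcnk6, Kcnk13, Kcnn4, Kcne4, Kcnmb1 and Kcnq1 did not overlap between the materials, whereas Kcnj8, Kcnj13, Kcnk7 and Kcne2 did. Markers of other cells were also higher in sdCAM libraries than in tissue, 5 of 6 for endothelial cells, 4 of 6 for mural cells and 2 of 6 for choroid plexus epithelium, and their part in the higher levels of Kcnj8, Kcnmb1, Kcne4, Kcnj13 and Kcne2 was not tested. Also higher were 7 of 7 markers of subdural CAMs (median log2 fold change 8.68), 6 of 6 for microglia (5.74), 6 of 6 for monocytes and neutrophils (9.54) and 3 of 3 tested for T cells (8.86), and the part of each in Kcnk13, Kcnk6 and Kcnn4 was not tested.

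Per kb of exon the order of channel genes in contralateral sdCAMs opened with Kcnj13 (62.8 ± 83.9 CPM per kb) and Kcne2 (37.5 ± 53.9), whose SD exceeded their mean. Kcnk6 (30.3 ± 9.53), Kcnk1 (28.1 ± 18.1) and Kcnk13 (22.4 ± 5.22) were also among the highest and did not differ beyond their spread. Two-pore channels made up 27.7% and Kir channels 27.6% of the summed level per kb, against 4.24% and 10.3% in tissue. Kcnj13 alone gave 62.8 of the Kir sum of 87.4 CPM per kb. Without Kcnj13 and Kcne2, a choice made after the values were seen, Kir channels made up 11.4% in sdCAMs against 10.2% in tissue, and two-pore channels 40.6% against 4.26%. Kcna3 and Kcnj2 are further channel genes known from macrophages. Kcna3 (Kv1.3) was at 3.73 ± 2.87 CPM in sdCAMs and 5.46 ± 0.944 in tissue, and Kcnj2 (Kir2.1) at 15.4 ± 13.7 and 22.8 ± 7.45 CPM, and neither was called between the materials (95% intervals of the log2 fold change -1.60 to 0.43 and -1.65 to 0.52).

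The 250 bases before the start of Kcnk13 and Kcnn4 are shown because these were among the channel genes higher in sdCAMs without overlap between the materials. They were taken from RefSeq on GRCm38.p6, plus strand, chr12:99964249-99964498 for Kcnk13 and chr7:24370013-24370262 for Kcnn4, and are written 5′ to 3′. Capitals mark the letters GAGGAA, which hold the GGAA core bound by ETS factors such as PU.1, a macrophage factor.
Kcnk13: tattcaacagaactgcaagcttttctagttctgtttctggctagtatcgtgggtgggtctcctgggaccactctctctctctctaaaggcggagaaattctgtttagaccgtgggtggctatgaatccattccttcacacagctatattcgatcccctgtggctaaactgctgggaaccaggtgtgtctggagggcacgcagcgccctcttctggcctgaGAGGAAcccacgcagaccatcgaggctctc
Kcnn4: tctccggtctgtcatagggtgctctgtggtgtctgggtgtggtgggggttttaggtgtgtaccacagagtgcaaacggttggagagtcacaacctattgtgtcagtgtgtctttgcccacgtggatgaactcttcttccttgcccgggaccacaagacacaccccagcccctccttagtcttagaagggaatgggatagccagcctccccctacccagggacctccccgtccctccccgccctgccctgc

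The motif stood once in the Kcnk13 window, its first base 30 bases before the start, and on neither strand of the Kcnn4 window. On either strand, as GAGGAA or TTCCTC, it was found in 21.1% of 133 promoter windows of 97 channel genes and in 23.3% of all 32851 windows of 250 bases. A match is a description of letters only.

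The third question was how channel genes of sdCAMs changed on the side of the stroke. Averaged over both treatments, 2 channel genes rose, Kcnk13 and Kcnk6, and 21 of 114 fell, against 4.98% higher and 11.2% lower among all 18297 genes. The channel genes had a median log2 fold change of -2.16 against -0.16 over all genes. In CTL mice Kcnk13 rose and Kcnab1 fell, against 0.426% higher and 2.36% lower among all genes. In BLZ945 mice Kcnk13 rose and Kcnab1, Kcna5, Kcnk1, Kcnmb1, Kcna6, Kcnh2 and Scn7a fell, against 1.2% higher and 4.41% lower. Counted over the 6 mice with both hemispheres, 12 channel genes (10.5%) were lower ipsilaterally in each mouse, against 10.6% of all genes, a share at the background. With the mouse as a block, 2 rose and 11 fell in the average, against 3.5% and 7.06% of all genes. The 11 were Kcnab1, Kcnk1, Kcnj13, Kcne2, Kcnmb1, Kcna5, Kcnh2, Kcne4, Kcna6, Kcnj12 and Kcnk3. The other channel genes that fell without the block were not called with it. Among them were Kcnj8, Scn7a, Cacna2d1 and Scn4b (edgeR adjusted p = 0.118, 0.0717, 0.0577 and 0.116). In CTL mice 4 fell and none rose with the block, against 0.126% higher and 1.48% lower. A3 and C2, with 1 sdCAM library each, add nothing to the comparison under the block.

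Kcnk13 was at 84.2, 77.4, 78.2 and 89.5 CPM in the contralateral sdCAMs of A2, A3, A4 and B1 and at 202, 151 and 133 CPM in the ipsilateral sdCAMs of A2, A4 and B1. In BLZ945 mice it was at 58.0, 64.9, 38.5 and 81.5 CPM contralaterally in C2, C3, C4 and D1 and at 163, 142 and 104 CPM ipsilaterally in C3, C4 and D1. Hemispheres did not overlap in either treatment. The log2 fold change was 1.07 ± 0.17 in the average (SE, edgeR adjusted p = 8.4e-04), 0.98 ± 0.24 in CTL (adjusted p = 0.0442) and 1.17 ± 0.24 in BLZ945 mice (adjusted p = 0.0126). With the block it was 1.06 ± 0.20 in the average (adjusted p = 0.00882), and in CTL mice the adjusted p became 0.167.

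Kcnk6 was at 149.6, 107, 158 and 178 CPM contralaterally in A2, A3, A4 and B1 and at 189, 235 and 256 CPM ipsilaterally in A2, A4 and B1. In C2, C3, C4 and D1 it was at 79.4, 135, 65.7 and 160.0 CPM contralaterally, with 309, 198 and 171 CPM ipsilaterally in C3, C4 and D1. All 6 mice with both hemispheres were higher ipsilaterally, and the hemispheres did not overlap within either treatment, although they did across treatments. The log2 fold change was 0.83 ± 0.21 (SE, edgeR adjusted p = 0.0159), or 1.77-fold. Without C3 the adjusted p was 0.0509.

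Macrophage markers moved the same way in these libraries. All 7 subdural CAM markers rose, with a median log2 fold change of 1.12, and of 6 microglia markers 1 rose, with a median of 0.42 over the list. Scaled to the summed counts of these lists in place of all genes, a choice made after the values were seen, the log2 fold change of Kcnk13 was 0.43 (edgeR adjusted p = 0.099) and that of Kcnk6 was 0.20 (adjusted p = 0.51), so neither was called, while the median of all genes moved from -0.16 to -0.80. In whole tissue neither gene was called, with log2 fold changes of 0.07 (95% interval -0.26 to 0.41) for Kcnk13 and 0.22 (-0.04 to 0.47) for Kcnk6.

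**Figure D4:**
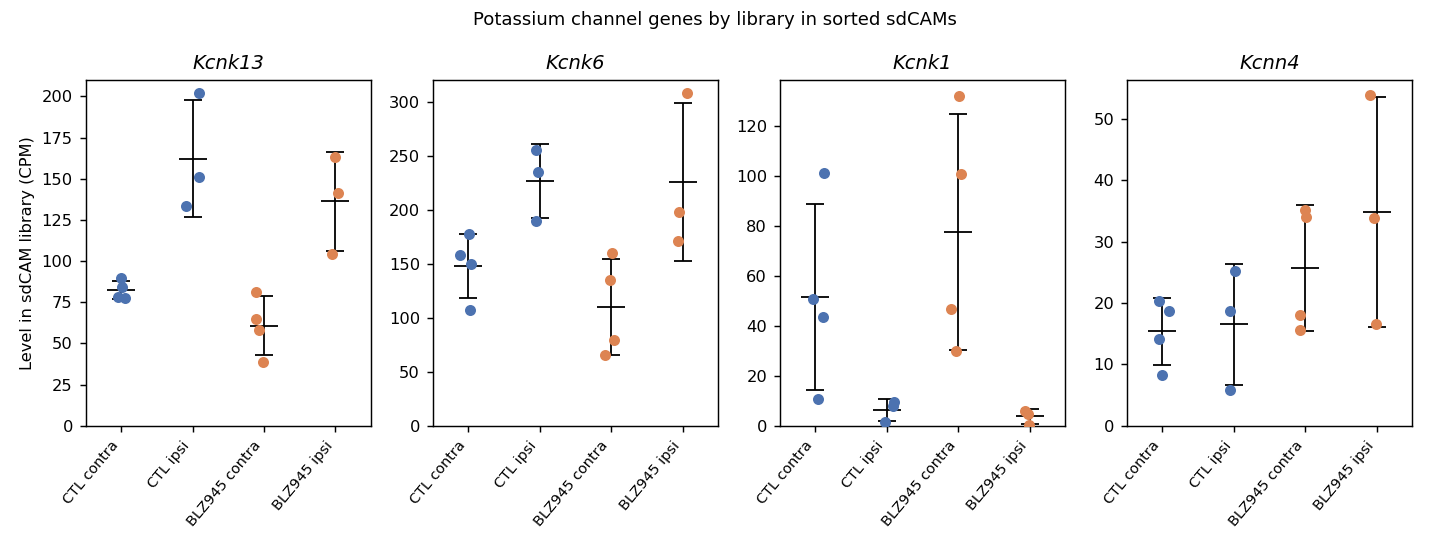
CPM of Kcnk13, Kcnk6, Kcnk1 and Kcnn4 in each sdCAM library by treatment and hemisphere, with the mean and SD in black (4 contralateral and 3 ipsilateral libraries per treatment). Every ipsilateral point of Kcnk13 lies above every contralateral point, Kcnk1 shows the opposite order, and the hemispheres overlap for Kcnn4.

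Several of the channel genes that fell in sdCAMs are known from other cell types than macrophages. Markers of such cell types were called lower unevenly in the same libraries, 6 of 6 for mural cells but 2 of 10 for neurons. Of the 10 neuronal markers 9 had a negative estimate, with a median log2 fold change of -1.70. The part of these cell types in the falls was not tested. Among genes known from mural cells and other contractile cells, Kcnmb1, the smooth muscle beta subunit of the BK channel, was at 13.5, 58.3, 24.1 and 21.2 CPM contralaterally in A2, A3, A4 and B1 and at 0, 5.19 and 0.429 CPM ipsilaterally in A2, A4 and B1. In C2, C3, C4 and D1 it was at 32.9, 31.7, 54.7 and 7.08 CPM contralaterally, and C3, C4 and D1 had 0.975, 0 and 0 CPM ipsilaterally. The hemispheres did not overlap, and the fitted log2 fold change was -5.28 ± 0.98 (SE, edgeR adjusted p = 0.00234). Kcna5, a Kv1 pore of vascular smooth muscle, was at 5.25 to 24.7 CPM contralaterally, while 5 of 6 ipsilateral libraries had no count and the sixth had 2.46 CPM. Kcnj8, the Kir6.1 pore of the vascular KATP channel, fell from a median of 28.3 CPM (4.23 to 75.4) to 5.52 CPM (0.322 to 15.2), a log2 fold change of -2.52 ± 0.76 (adjusted p = 0.0359). All 6 mural markers fell, among them Acta2 from 572 to 3746 CPM down to 23.5 to 88.8 CPM.

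Kcnab1, a Kv beta subunit, had the smallest adjusted p-value of all channel genes in sdCAMs. It was at 6.77, 64.1, 32.2 and 21.1 CPM contralaterally in A2, A3, A4 and B1 and at 0.125, 0 and 0 CPM ipsilaterally in A2, A4 and B1. In C2, C3, C4 and D1 it was at 25.8, 38.7, 109 and 19.6 CPM, against 0.122, 0 and 0.412 CPM in C3, C4 and D1. The 6 ipsilateral libraries held 6 reads in all, against 3159 in the 8 contralateral ones (fitted log2 fold change -8.54 ± 0.86, SE, edgeR adjusted p = 2.7e-05).

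Kcnj13 (Kir7.1) and Kcne2, are known from choroid plexus epithelium. Kcnj13 was at 0, 2.23, 93.6 and 1.86 CPM in the contralateral libraries of A2, A3, A4 and B1 and at 8.86, 168, 308 and 71.4 CPM in those of C2, C3, C4 and D1, against 0 to 8.90 CPM ipsilaterally. Kcne2 was at 0, 1.84, 72.5 and 6.88 CPM and at 3.67, 138, 278 and 42.6 CPM in the same order, against 0 to 9.38 CPM. Contralateral A4, C3, C4 and D1 were thus the high libraries for both genes, and the 4 with the largest sum of choroid plexus markers other than Ttr, from 376 to 1450 CPM. Both genes fell in the average (log2 fold change -4.91 ± 1.31, edgeR adjusted p = 0.0201, for Kcnj13 and -7.74 ± 1.93, adjusted p = 0.0166, for Kcne2), and 4 of the 6 choroid plexus markers fell with them. Without these 4 libraries fewer channel genes were called in the average. That fit kept only C2 among the contralateral BLZ945 libraries, so the smaller number of calls cannot be told apart from the loss of replicates.

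The other genes that fell were spread over several channel families. Kcnk1 (TWIK1), a two-pore channel of astrocytes and neurons, went from 50.9, 43.6, 101 and 10.8 CPM in A2, A3, A4 and B1 and 46.9, 101, 132 and 30.1 CPM in C2, C3, C4 and D1 to 9.41, 8.04 and 1.50 CPM in A2, A4 and B1 and 6.09, 4.90 and 0.206 CPM in C3, C4 and D1. Its hemispheres did not overlap, with a log2 fold change of -3.71 ± 0.67 (SE, edgeR adjusted p = 0.00195). Scn7a, the atypical Nav channel Nax, had a contralateral median of 5.68 CPM (0 to 16.2) and 4 reads in all over the ipsilateral libraries. Kcna6 went from a median of 9.16 (0.101 to 25.4) to 0.454 CPM (0 to 3.54), Kcnj12 from 3.98 (3.28 to 15.7) to 0.128 (0 to 0.853), Cacna2d1 from 4.55 (0.821 to 14.4) to 0 (0 to 0.853), Kcne4 from 25.8 (6.96 to 91.5) to 1.77 (0 to 5.84), Kcnk3 (TASK1) from 9.12 (2.82 to 17.7) to 0.877 (0 to 3.76) and Scn4b from 3.89 (0 to 29.7) to 0.0627 CPM (0 to 2.89). The remaining calls, Kcnh2, Cacng5, Kcnip2, Kcnmb4, Cacng2, Kcna2 and Kcnc4, rested on few reads. Kcnh2 (hERG) and Cacng5 had 2 ipsilateral reads each, a contralateral to ipsilateral ratio of 198 (exact 95% counting interval 54.6 to 1640.5) and 117 (32.2 to 972). Of the 617 contralateral Kcnh2 reads 386 came from C4, and without that library the ratio was 84.8 (23.2 to 705). Kcnh2 was not called without the 4 libraries highest in choroid plexus markers, a fit that kept only C2 among the contralateral BLZ945 libraries. These intervals leave out the spread between mice. Cacng5 was not called without A2, A4, B1 or C2 (edgeR adjusted p = 0.0796, 0.0595, 0.0708 and 1.00). Kcnip2 and Kcnmb4 had 1 read each and ratios of 82.9 (14.6 to 3299) and 30.2 (5.16 to 1218), and Cacng2 had none, which puts it at least 1.78-fold lower against the floor of 3 counts per library. Kcna2 and Kcnc4 had 4 and 9 ipsilateral reads.

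Beside these falls, all 6 oligodendrocyte, all 6 endothelial, 5 of 7 astrocyte and 2 of 10 neuronal markers fell, and their part in the channel results was not tested. Of the 41 partners 36 were tested and 12 fell, none rose. They included the astrocytic pump subunit Atp1b2 (75.1 ± 35.7 CPM in 8 contralateral and 10.4 ± 11.6 CPM in 6 ipsilateral libraries, SD, log2 fold change -3.00 ± 0.57, SE, edgeR adjusted p = 0.0028).

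**Figure D5:**
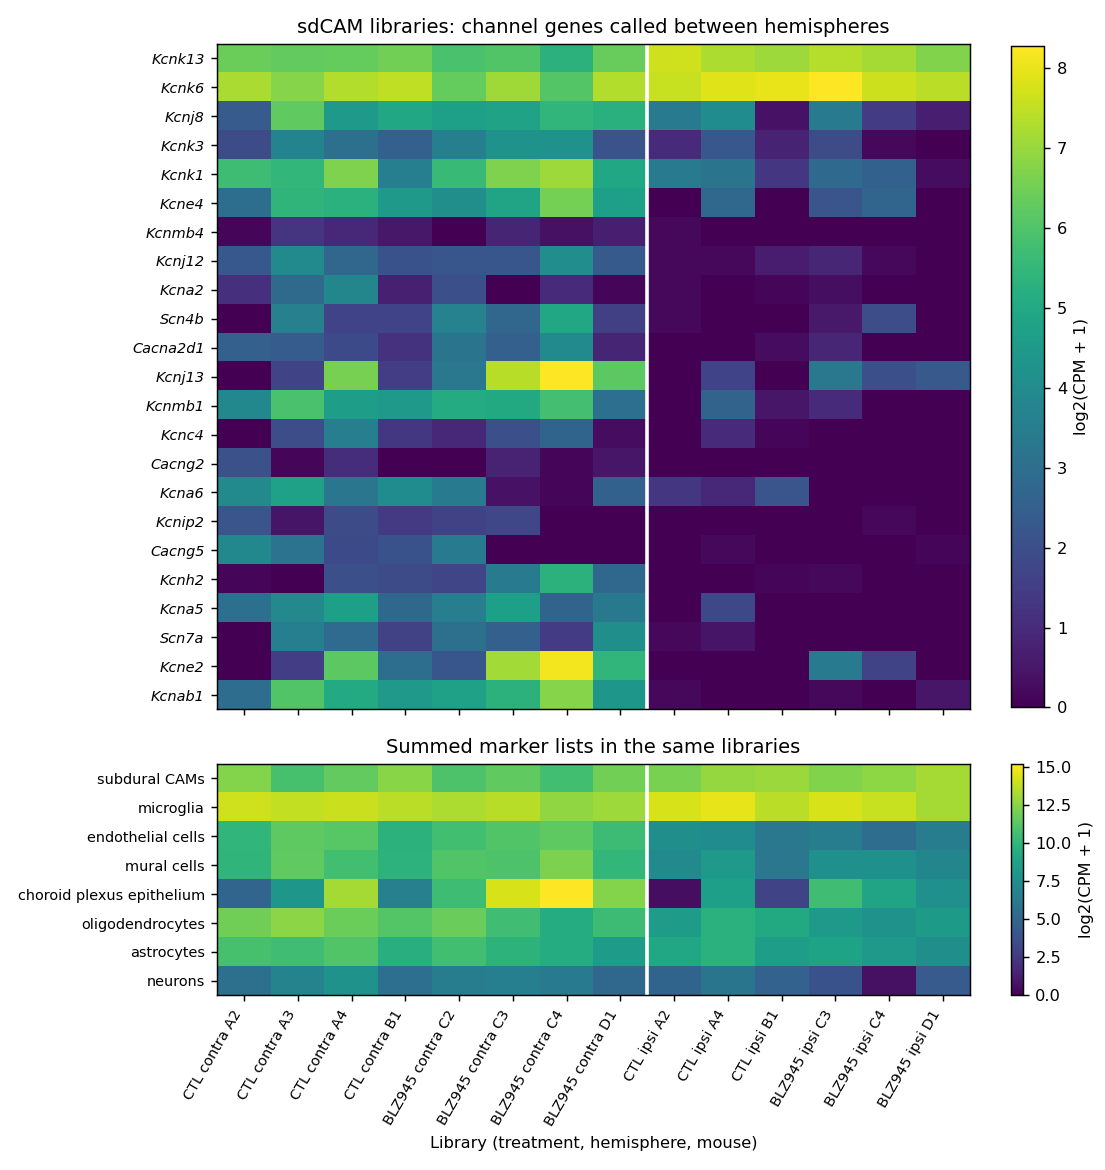
Top, log2(CPM + 1) of the 23 channel genes called between hemispheres in each of 14 sdCAM libraries (columns, the white line divides contralateral from ipsilateral); bottom, the same for the summed markers of 8 cell types. The ipsilateral columns are darker than most contralateral ones for the 21 genes that fell and for endothelial and mural markers, and Kcnj13 and Kcne2 are brightest in the columns where choroid plexus markers are.

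Several channel genes with clear levels in sdCAMs were not called between hemispheres. Kcnip3 was at 19.6 to 65.4 CPM contralaterally and 9.92 to 44.8 CPM ipsilaterally, with a log2 fold change of -0.35 (95% interval -0.98 to 0.28), and Kcnd1 (Kv4.1) at 10.1 to 39.2 and 18.1 to 37.9 CPM, with 0.17 (-0.51 to 0.86). Kcnn4 was at 20.4, 14.2, 8.27 and 18.7 CPM contralaterally in A2, A3, A4 and B1 and at 25.2, 5.84 and 18.7 CPM ipsilaterally in A2, A4 and B1. In BLZ945 mice it was at 35.2, 18.1, 15.6 and 34.0 CPM contralaterally and at 54.0, 16.6 and 33.9 CPM ipsilaterally, and the averaged log2 fold change was 0.27 (-0.52 to 1.07). The intervals for Kcnj2 (-1.28 to 1.47) and Kcna3 (-1.27 to 1.67) were wide.

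The last question was whether channel genes differed between BLZ945 and CTL mice. No channel gene was called between the treatments in either hemisphere of either material. A difference between the treatments in the response to stroke was called for none of them either. Of all genes 0% were called in each of these 6 comparisons (edgeR). At an unadjusted p under 0.05 there were 4 of 129 channel genes in ipsilateral and 2 in contralateral tissue, and 8 and 12 of 114 in sdCAMs. Among all genes there were 858 and 616 of 18968 in tissue, and 1034 and 1133 of 18297 in sdCAMs. For the difference between responses there were 1 in tissue and 9 in sdCAMs, against 386 and 912 of all genes. DESeq2 called 1 in ipsilateral sdCAMs, Kcna6 (log2 fold change -6.52, adjusted p = 0.0225), and 1 in contralateral sdCAMs, Kcne3 (8.57, adjusted p = 4.7e-04), both at low counts, and none in the other 4. In contralateral sdCAMs Kcnk13 had an estimate of -0.44 for BLZ945 against CTL (log2 scale, 95% interval -0.92 to 0.05), and Kcnk6 of -0.43 (-1.03 to 0.16). In that comparison all 7 subdural CAM and all 6 microglia markers had negative estimates, with medians of -0.80 and -0.77, and the 6 choroid plexus markers a median of 2.40. None of these markers was called, and their part was not tested. Kcnn4 had an estimate of 0.74 (-0.31 to 1.79) contralaterally and of 1.07 (-0.15 to 2.29) ipsilaterally. In tissue the intervals were narrower. Scn1a differed by 0.09 (-0.06 to 0.24) in both hemispheres, and its response to stroke by 0.00 (-0.23 to 0.23). The response of Kcnk13 in sdCAMs differed by 0.19 (-0.55 to 0.92) and that of Kcnk6 by 0.42 (-0.48 to 1.33).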

How the data were processed

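The deposited values were raw counts per gene symbol, which the authors made with bcl2fastq 2.20, STAR 2.7.11a and featureCounts 2.0.8, per the labels. Whether strand was used in counting and which genome build these libraries were aligned to are not given clearly in the sources used here, so reads of overlapping genes cannot be told apart. Total counts were 9288717 to 12781505 in 16 tissue libraries and 7397393 to 11081409 in the 14 sdCAM libraries used. Samples were grouped by treatment and hemisphere from the sample titles and treatment labels.

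Tissue, sdCAMs and the contralateral libraries of both were fitted separately in edgeR 4.0.16 (R 4.3.3) with TMM scaling and the quasi-likelihood test. Genes with summed counts of at least 8, 7 and 8 were kept, and p-values were adjusted over all genes tested (Benjamini-Hochberg, threshold 0.05). CPM were scaled by TMM within each fit. The genes and lists described were chosen with earlier results of these data known. Named were all called genes, or the 12 with the largest change at a mean of at least 1 CPM where more were called, the 2 highest of each family and a list of 35 genes; further genes named with the mouse as a block, by level or by spread were chosen after their values were seen. The hemispheres of a mouse come from the same animal, and their deviations from the group means correlated in each of 8 tissue pairs (0.201 to 0.663, median 0.433) and 6 sdCAM pairs (0.0651 to 0.255, median 0.153), against medians of -0.13 and -0.06 between mice. Replicates differed by more than sampling noise. Alternatives were DESeq2 1.42.0 (test and size factors), library size alone, filterByExpr, no filter, a log2 threshold of 0.59, the mouse block, each mouse left out, all 16 sdCAM libraries and A3 exchanged, and, chosen after seeing the data, scaling to macrophage markers, leaving out the 4 sdCAM libraries highest in choroid plexus markers, and the block with A3 exchanged. The scripts were tested on simulated data. Results for a few genes are not reported here.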

Additional observations from a re-analysis of the deposited data

Results flagged for a closer look

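Cacng5 in the contralateral sdCAMs of BLZ945 mice stood apart in 1 library. Mouse C2 had 9.88 CPM, while C3, C4 and D1 had no count. Of the 38 groups of 4 libraries tested for an outlying library 1 was flagged, and chance flags about 1 in 20 such groups. That rate need not hold here. With no count in C3, C4 and D1, the gap to C2 equals the whole range at any level of C2.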

How the results depend on the processing

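For the averaged stroke response in tissue, 2 channel genes were called, against 0 with a log2 threshold of 0.59, 4 with DESeq2, 24 with the mouse as a block and 0 with the A3 hemispheres exchanged. Leaving out 1 mouse gave 0 to 7, with 0 without A2, A3, C2 or C4, 1 without B1 or D1 and 7 without C3. In BLZ945 tissue the block gave 11 in place of 0, and leaving out 1 mouse 0 to 1, the 1 being without C3. For sdCAMs of CTL mice, 2 became 16 with DESeq2, 1 with its size factors, 4 with the block and 1 with all 16 libraries. Leaving out a mouse gave 1 to 3, with 1 without A2, A3, B1, C2 or C3. In BLZ945 sdCAMs, 8 became 16 with DESeq2 and 16 when scaled to macrophage markers. Leaving out a mouse gave 2 to 9, with 4 without C3 or D1 and 2 without C4. In the sdCAM average, 23 became 13 with the block, 13 with all 16 libraries and 6 without those 4. Leaving out a mouse gave 15 to 20, the 15 being without C4. DESeq2 called 1 channel gene between treatments in ipsilateral and 1 in contralateral sdCAMs, in place of 0. The cause of these shifts was not tested. Between sdCAMs and tissue, leaving out a mouse gave 108 to 112 of the 112 calls. Cacna2d1 in the sdCAM average turned to 0.53 with all 16 libraries (edgeR adjusted p = 0.966). Kcnk6 there missed the threshold without C3 (adjusted p = 0.0509). The block changed no other count by over 1.5 times.

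Over the named genes, 342 of 351 alternatives kept direction and call between sdCAMs and tissue, 197 of 238 in the sdCAM average, 104 of 136 in BLZ945 and 23 of 34 in CTL sdCAMs, and 16 of 32 in tissue. Many sdCAM calls rest on few ipsilateral reads, where fitted fold changes depend on the prior count and depth limits the ratio.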

Other observations

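Kcne3, a Kv auxiliary subunit, was called by DESeq2 but not by edgeR in sdCAMs. It had no count in the 4 contralateral libraries of CTL mice and 1.74 to 13.5 CPM in the 4 of BLZ945 mice. DESeq2 gave a log2 fold change between hemispheres of 6.10 in CTL mice (adjusted p = 0.00627) and of 2.97 in the average (adjusted p = 0.0302), and made no call in BLZ945 mice. The edgeR estimates were 6.61 (95% interval 2.64 to 10.6) in CTL mice and -0.04 (-3.02 to 2.94) in BLZ945 mice, neither of them called. In the average edgeR made no call either. Against libraries at 0 a fitted fold change depends on the prior count and is no bound.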
